A study of Arabidopsis thaliana with 42 samples.

Results

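The genes described here are 10 morning genes of the Arabidopsis thaliana circadian clock. They are 8 MYB-like transcription factors of the CCA1 and REVEILLE (RVE) family, namely CCA1 (AT2G46830), LHY (AT1G01060), RVE1 (AT5G17300), RVE2 (AT5G37260), RVE4 (AT5G02840), RVE6 (AT5G52660), RVE7 (AT1G18330) and RVE8 (AT3G09600), and their 2 partners LNK1 (AT5G64170) and LNK2 (AT3G54500). They were picked by gene identifier from the 27667 loci counted, as a list drawn up with earlier results of these data known, and all 10 passed the filter on low counts in every comparison.

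The plant clock runs on transcription factors that repress or activate one another in turn over the day. CCA1 and LHY accumulate around dawn and repress genes expressed later, among them the pseudo-response regulators (PRRs), which in turn repress CCA1 and LHY. RVE4, RVE6 and RVE8 are activators of afternoon and evening genes, and LNK1 and LNK2, which bind no DNA themselves, are recruited by RVE factors as coactivators.

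Whole seedlings 5 days old were sequenced in 14 groups of 3 libraries. The line labelled rh6812, in the Col-0 accession, was set against Col-0, the wild type. The digits of its name are read here as RH6, RH8 and RH12, helicases of the DHH1/DDX6 family. That family is known for roles in decapping and in holding mRNAs back from translation. Alleles are not named in the labels. Seedlings given no agent provided poly(A)+ RNA, with total RNA of rh6812 and of Col-0 and polysome-bound RNA of rh6812 and of Col-0. Seedlings labelled with cordycepin, an inhibitor of new transcription, provided rRNA-depleted RNA of each genotype at 0, 15, 30, 60 and 120 min, and the 0 min libraries carry the cordycepin label too. The labels give no hour of harvest, light regime or cordycepin dose, and the 2 kinds of library were made by different protocols, so their levels are set side by side but not tested against each other.

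The poly(A)+ libraries held 4611462 to 30654342 counts each. The rRNA-depleted libraries held 11463206 to 22251739, of which organelle genes took 43.6% to 60.7%. In libraries labelled rh6812, RH8 was lower than in Col-0 in total RNA (log2 change -3.48 ± 0.14 SE, adjusted p = 5.5e-19, edgeR) and RH12 was lower by less (-0.66 ± 0.10, adjusted p = 4.8e-07), whereas RH6 was higher (1.27 ± 0.08, adjusted p = 9.9e-15). The RH6 transcript therefore went against the label, and every direction below is one of libraries labelled rh6812 relative to those labelled Col-0. The second Col-0 cordycepin series stood apart from the other 2 for several of the 10 genes, and the values it moves most are also given without it. Flower markers (AP1, AP3, AG) summed to at most 1.22 CPM (counts scaled to the library total) in any library and seed maturation markers to at most 66.0 CPM, against 10000 CPM or more for green tissue markers.

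Upstream sequences are shown because clock genes of this family are known to be regulated through sites in such regions. The 300 bases before the RefSeq start of each gene were read from the TAIR10.1 assembly and searched on both strands for 4 motifs, with no overlap between matches. These were the G-box (CACGTG, the same on both strands), the evening element (AAAATATCT, or AGATATTTT), the CCA1-binding site (AAAAATCT, or AGATTTTT) and a TCP site (GGNCCCAC, or GTGGGNCC). The G-box was present in 4 of the 10 genes (40.0%), CCA1, LHY, RVE1 and RVE2. It was present in 7.09% of the 27438 upstream regions of protein-coding genes, called all regions below. The TCP site was present in CCA1, where a TCP factor named CHE is known to bind, and in 1.18% of all regions. CCA1-binding sites were found in RVE2 and RVE6 (7.94% of all regions), and the evening element in RVE7 (2.79% of all regions). RVE4, RVE8, LNK1 and LNK2 held none of the 4 in this window, although RVE8 had 2 G-boxes farther out, at 888 and 814 bases before its start, where 14.8% of all regions of 1000 bases hold one. Shown 5′ to 3′ toward the gene, with motif matches in capitals, are CCA1 (chr2:19245291-19245590, plus strand), LHY (chr1:37872-38171, minus strand), RVE1 (chr5:5692993-5693292, minus strand), RVE2 (chr5:14753089-14753388, minus strand) and RVE7 (chr1:6308244-6308543, minus strand).
CCA1: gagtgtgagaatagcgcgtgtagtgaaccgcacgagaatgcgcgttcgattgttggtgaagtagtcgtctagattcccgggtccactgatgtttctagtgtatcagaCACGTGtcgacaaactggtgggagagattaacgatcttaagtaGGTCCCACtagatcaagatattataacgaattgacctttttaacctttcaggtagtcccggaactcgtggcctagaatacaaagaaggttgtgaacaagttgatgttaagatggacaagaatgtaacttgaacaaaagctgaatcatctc
LHY: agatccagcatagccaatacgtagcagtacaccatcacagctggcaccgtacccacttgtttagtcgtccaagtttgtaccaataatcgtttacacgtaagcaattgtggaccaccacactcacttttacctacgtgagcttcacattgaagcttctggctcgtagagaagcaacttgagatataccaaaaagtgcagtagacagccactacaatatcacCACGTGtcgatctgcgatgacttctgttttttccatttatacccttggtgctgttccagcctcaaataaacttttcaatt
RVE1: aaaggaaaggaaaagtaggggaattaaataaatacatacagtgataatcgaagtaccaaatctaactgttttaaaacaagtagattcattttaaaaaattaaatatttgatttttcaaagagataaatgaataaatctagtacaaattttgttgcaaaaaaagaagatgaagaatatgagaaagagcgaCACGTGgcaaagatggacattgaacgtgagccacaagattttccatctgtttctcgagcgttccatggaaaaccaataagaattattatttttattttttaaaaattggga
RVE2: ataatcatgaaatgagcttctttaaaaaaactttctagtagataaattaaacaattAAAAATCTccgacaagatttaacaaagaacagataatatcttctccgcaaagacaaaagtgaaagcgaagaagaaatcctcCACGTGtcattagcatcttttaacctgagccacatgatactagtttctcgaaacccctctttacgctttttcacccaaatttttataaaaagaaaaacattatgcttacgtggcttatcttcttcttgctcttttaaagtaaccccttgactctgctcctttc
RVE7: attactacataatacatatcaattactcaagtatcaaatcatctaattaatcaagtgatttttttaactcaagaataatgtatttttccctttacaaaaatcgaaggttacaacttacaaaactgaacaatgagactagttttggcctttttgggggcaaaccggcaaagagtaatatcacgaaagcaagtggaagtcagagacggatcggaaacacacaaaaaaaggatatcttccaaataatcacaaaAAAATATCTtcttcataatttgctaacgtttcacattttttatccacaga
The G-boxes lie 193 bases before the start in CCA1, 80 in LHY, 111 in RVE1 and 163 in RVE2, and the evening element lies 50 bases before the start of RVE7. Such a match is a description of the letters and was not tested as a binding site.

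In total poly(A)+ RNA, the morning MYB genes split into a group far higher in rh6812 and a group that was lower or little changed. CCA1, LHY, RVE1, RVE2 and RVE8 were higher in rh6812 than in Col-0, by 3.21-fold to 17.2-fold in mean CPM. RVE7, LNK2, LNK1 and RVE4 were lower. These calls, 5 higher and 4 lower of 10, stand against a background in which 64.6% of the 20949 genes tested were called, 32.2% higher and 32.4% lower. The replicates of rh6812 and Col-0 did not overlap for 8 of the 10 genes and for 68.3% of all genes. Values are CPM after TMM scaling, which sets the bulk of genes to a common level, and each log2 change comes from edgeR's quasi-likelihood test with Benjamini-Hochberg adjustment over all genes tested and a threshold of 0.05. In whole seedlings, fewer cells of a type and less RNA per cell cannot be told apart.

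Among the core repressors, CCA1 had 36.5, 38.2 and 37.2 CPM in rh6812 total RNA, against 5.94, 6.62 and 6.97 CPM in Col-0 total RNA. LHY, its closest partner, had 43.8, 47.0 and 49.9 CPM in rh6812 and 3.45, 4.03 and 4.04 CPM in Col-0. All 3 rh6812 libraries lay above all 3 Col-0 libraries for both genes, and the log2 changes were 2.53 ± 0.15 for CCA1 (SE, adjusted p = 9.2e-14) and 3.63 ± 0.12 for LHY (adjusted p = 6.6e-21). RVE2, also known as CIR1, a MYB-like factor whose overexpression is known to disturb circadian rhythms, showed the largest change of the 10 genes. Its CPM were 71.5, 63.2 and 62.3 in rh6812, against 3.80, 3.99 and 3.64 in Col-0, a log2 change of 4.09 ± 0.11 (adjusted p = 6.2e-23).

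RVE8, the activator of evening genes, had 19.1, 16.6 and 19.0 CPM in rh6812 and 2.00, 2.05 and 1.98 CPM in Col-0 (log2 change 3.17 ± 0.16, adjusted p = 3.9e-17). RVE1, which is known to promote auxin synthesis in the day, had 27.5, 22.4 and 21.1 CPM in rh6812 and 6.86, 5.31 and 9.98 CPM in Col-0 (1.73 ± 0.17, adjusted p = 7e-09). The other 2 evening-gene activators did not share this rise. RVE4 had 16.8, 15.9 and 14.7 CPM in rh6812 against 19.7, 20.4 and 16.9 CPM in Col-0, and fell by 0.28 ± 0.12 on the log2 scale (adjusted p = 0.042). RVE6 averaged 4.90 CPM in rh6812 and 4.83 CPM in Col-0, with overlapping replicates and a log2 change of 0.04 ± 0.17 (adjusted p = 0.85). Groups did not overlap for RVE8, RVE1 or RVE4, although the RVE4 gap was below 1 CPM.

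RVE7, also known as EPR1, whose upstream region holds the evening element, was the member that fell most. It had 2.79, 2.54 and 2.95 CPM in rh6812, against 11.6, 11.5 and 11.5 CPM in Col-0 (log2 change -2.06 ± 0.17, adjusted p = 5.5e-12). RVE7 exons aligned at 99.7% identity to stretches that touch AT3G10113 (1360 bases) and AT3G10110 (1134 bases), so its reads may be split among these loci. Each stretch was counted in full for every locus it touches, so how much lies within either locus is not known. AT3G10113 averaged 1.49 ± 0.47 CPM in rh6812 and 5.45 ± 0.17 in Col-0 (SD, n = 3 each), whereas AT3G10110 averaged 7.86 ± 1.25 in rh6812 and 4.02 ± 0.45 in Col-0. The 2 loci thus differed in opposite directions, AT3G10113 in that of RVE7, and the level of RVE7 itself is uncertain.

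The coactivators were both lower. LNK2 had 120, 115 and 120 CPM in rh6812 and 156, 185 and 168 CPM in Col-0, with no overlap, a log2 change of -0.52 ± 0.08 (adjusted p = 2.1e-06). LNK1 had 13.9, 18.8 and 13.6 CPM in rh6812 and 17.5, 21.1 and 21.2 CPM in Col-0, with overlap (-0.36 ± 0.13, adjusted p = 0.018). Some exons overlap genes on the opposite strand, and whether the counting used strand is not stated, so shared reads cannot be told apart. The overlap is 245 exon bases with AT5G64160 for LNK1, 93 with AT3G54490 for LNK2 and 225 with AT5G17305 for RVE1, and AT5G17305 averaged 4.97 CPM in rh6812 and 1.69 CPM in Col-0.

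The smaller calls of this comparison rest on few libraries. RVE4 missed the threshold with DESeq2 (adjusted p = 0.082) and without Col-0 replicate 1 (-0.26, adjusted p = 0.11), Col-0 replicate 2 (-0.23, 0.13), rh6812 replicate 2 (-0.29, 0.072) or rh6812 replicate 3 (-0.23, 0.15), and LNK1 missed it without Col-0 replicate 2 (-0.31, 0.073) or rh6812 replicate 3 (-0.26, 0.11). LNK1 gave -0.54 (adjusted p = 0.001) without rh6812 replicate 2. Root markers were 3 of 4 higher in rh6812 total RNA and summed to 2159 to 2239 CPM there, against 1168 to 1457 CPM in Col-0. Most of each sum was PYK10, with means of 2030 CPM in rh6812 and 1104 CPM in Col-0. TIP2;3 was the lower marker, with means of 151 CPM in rh6812 and 236 CPM in Col-0. Green tissue markers were 2 higher and 2 lower. The part of tissue make-up in the clock gene changes was not tested.

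**Figure D1:**
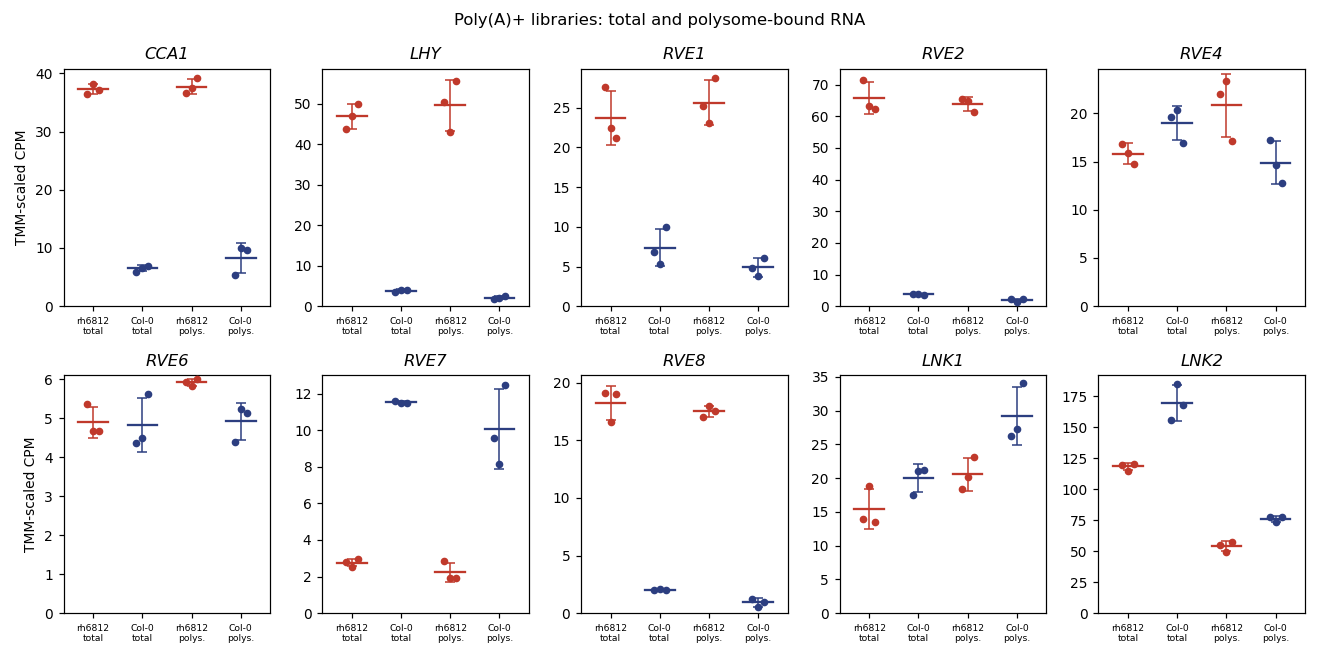
TMM-scaled CPM (y axis, linear, from 0) of the 10 genes in the 12 poly(A)+ libraries. Points are libraries, bars the mean and SD of 3; CCA1, LHY, RVE1, RVE2 and RVE8 lie far above Col-0 in both RNA populations of rh6812, and RVE7 far below.

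In polysome-bound poly(A)+ RNA, the RNA attached to ribosomes, the same 5 genes were higher and RVE4 joined them. RVE7, LNK1 and LNK2 were lower. These 6 higher and 3 lower calls stand against 63.5% of genes called, 30.2% higher and 33.3% lower, and 9 of the 10 genes had no overlap between rh6812 and Col-0 replicates, against 66.1% of all genes.

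RVE2 again differed most, with 65.4, 64.9 and 61.3 CPM in rh6812 polysomes, against 2.13, 1.39 and 2.25 CPM in Col-0 polysomes (log2 change 4.97 ± 0.13, adjusted p = 1.5e-23). LHY had 50.5, 43.0 and 55.6 CPM in rh6812 and 1.76, 2.04 and 2.42 CPM in Col-0 (4.63 ± 0.14, adjusted p = 4.6e-22). RVE8 had 17.0, 18.0 and 17.5 CPM in rh6812 and 1.25, 0.536 and 0.98 CPM in Col-0 (4.07 ± 0.19, adjusted p = 6.5e-18). All 3 genes were thus close to 1 or 2 CPM on Col-0 polysomes and well above in rh6812.

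CCA1 had 36.6, 37.4 and 39.1 CPM in rh6812 polysomes and 5.30, 9.96 and 9.63 CPM in Col-0 polysomes (2.26 ± 0.15, adjusted p = 2e-12), where the first Col-0 library was the lowest. RVE1 averaged 25.7 CPM in rh6812 and 4.89 CPM in Col-0 (2.36 ± 0.19, adjusted p = 2.1e-10). RVE4 had 22.0, 23.3 and 17.2 CPM in rh6812 and 17.2, 14.7 and 12.7 CPM in Col-0, so the groups touched, with a log2 change of 0.46 ± 0.13 (adjusted p = 0.0028). RVE7 averaged 2.24 CPM in rh6812 and 10.1 CPM in Col-0 (-2.06 ± 0.20, adjusted p = 2.4e-10), and RVE6 gave 0.29 ± 0.18 (adjusted p = 0.16).

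LNK1, with 18.3, 20.2 and 23.2 CPM in rh6812 and 26.2, 27.3 and 34.1 CPM in Col-0, fell by 0.52 ± 0.14 (adjusted p = 0.0015). LNK2, with 54.9, 49.3 and 57.5 CPM in rh6812 and 77.2, 73.3 and 77.7 CPM in Col-0, fell by 0.49 ± 0.09 (adjusted p = 1.7e-05). Neither LNK gene overlapped between the genotypes in polysome RNA. These 9 calls remained when any one library was left out.

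Across the 4 poly(A)+ groups, the order of mean levels fell into a few patterns. For CCA1, LHY, RVE1, RVE2 and RVE8 both rh6812 groups came first, overlapping each other and apart from both Col-0 groups. In Col-0, total RNA then exceeded polysome RNA without overlap for LHY (3.84 and 2.07 CPM), RVE2 (3.81 and 1.92 CPM) and RVE8 (2.01 and 0.922 CPM). RVE7 had the reverse order of genotypes, with both rh6812 groups below both Col-0 groups. For LNK2 all neighbours in the order were apart, from 169 CPM in Col-0 total RNA through 118 in rh6812 total RNA and 76.1 in Col-0 polysomes down to 53.9 in rh6812 polysomes.

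Polysome and total RNA were then compared as the polysome over total ratio within each genotype. TMM scaling centres this ratio on the typical transcript, with medians over all genes of -0.01 in rh6812 and 0.04 in Col-0. The ratio is therefore relative and is not the share of a transcript's molecules on polysomes. In rh6812, RVE4 (log2 ratio 0.39 ± 0.13, adjusted p = 0.011) and LNK1 (0.39 ± 0.14, adjusted p = 0.021) were higher on polysomes than in total RNA, and LNK2 was lower (-1.12 ± 0.09, adjusted p = 6.8e-12), against 53.2% of all genes called, 26% higher and 27.2% lower. In Col-0, LNK1 was higher (0.56 ± 0.13, adjusted p = 0.00042) and 6 genes were lower, against 57.7% of all genes called, 30.7% higher and 27% lower. Polysome and total replicates of Col-0 did not overlap for 5 of the 10 genes, against 62.2% of all genes. The 6 lower ones were LHY (-0.91 ± 0.17, adjusted p = 5.2e-05), RVE2 (-0.92 ± 0.16, adjusted p = 1.7e-05), RVE8 (-0.96 ± 0.23, adjusted p = 0.00062), RVE1 (-0.50 ± 0.20, adjusted p = 0.033), RVE4 (-0.35 ± 0.12, adjusted p = 0.015) and LNK2 (-1.15 ± 0.08, adjusted p = 9.7e-13). LNK2 thus had a ratio below that of the typical transcript in both genotypes. In rh6812 it had 54.9, 49.3 and 57.5 CPM on polysomes against 120, 115 and 120 CPM in total RNA. In Col-0 it had 77.2, 73.3 and 77.7 CPM on polysomes against 156, 185 and 168 CPM in total RNA. Tissue markers differed between the 2 RNA populations as well. All 4 root markers were lower on polysomes in both genotypes, with median log2 ratios of -4.68 in rh6812 and -2.40 in Col-0. All 4 green tissue markers were higher in both, with medians of 0.62 in rh6812 and 0.64 in Col-0. With library size alone, LHCB2.1 was not called in rh6812 (0.18, adjusted p = 0.073). The part of tissue make-up in the clock gene ratios was not tested.

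For LHY, RVE2 and RVE8 the log2 ratio in rh6812 was near 0, at 0.10 ± 0.10 for LHY, -0.04 ± 0.09 for RVE2 and -0.06 ± 0.13 for RVE8. CCA1 gave 0.01 ± 0.13 in rh6812 and 0.28 ± 0.17 in Col-0 (adjusted p = 0.15), and the Col-0 value turned on 1 library: without Col-0 polysome replicate 1 it was 0.60 (adjusted p = 0.0004). In rh6812 the RVE4 call was lost without polysome replicate 1 (0.35, adjusted p = 0.065) or total replicate 3 (0.34, 0.051). With library size alone neither RVE4 (0.23, adjusted p = 0.18) nor LNK1 (0.23, adjusted p = 0.19) was called. The LNK1 call was also lost without polysome replicate 3 (0.31, 0.099), total replicate 1 (0.36, 0.054) or total replicate 3 (0.30, 0.11). In Col-0 the RVE1 call was lost without polysome replicate 1 (-0.46, 0.13), polysome replicate 2 (-0.40, 0.10), total replicate 1 (-0.53, 0.06) or total replicate 3 (-0.28, 0.17), and the RVE4 call without polysome replicate 3 (-0.24, 0.13), total replicate 1 (-0.32, 0.055) or total replicate 2 (-0.30, 0.061).

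**Figure D2:**
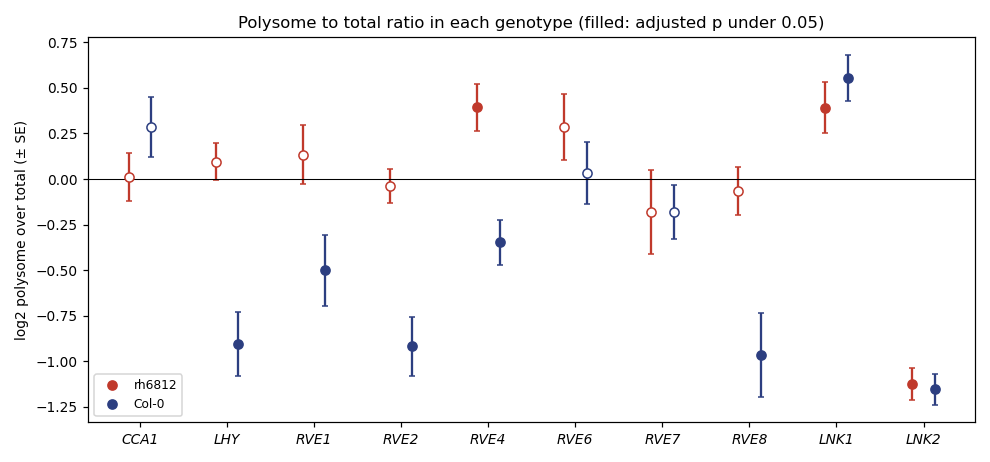
Log2 polysome over total ratio (y axis, ± SE) of each gene in rh6812 (red, left) and Col-0 (blue, right), filled where the adjusted p is under 0.05. LHY, RVE1, RVE2, RVE4 and RVE8 lie below 0 in Col-0 and near or above 0 in rh6812, and LNK2 lies near -1.1 in both.

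The difference of these ratios between rh6812 and Col-0, here called ribosome association and tested as an interaction, was higher in rh6812 for 4 of the 10 genes, against 9.75% of all genes called, 3.3% higher and 6.45% lower. The 4 were all MYB genes. LHY gave a log2 difference of 1.00 ± 0.20 (adjusted p = 0.0011), RVE2 0.88 ± 0.19 (adjusted p = 0.0019), RVE8 0.90 ± 0.27 (adjusted p = 0.026) and RVE4 0.74 ± 0.18 (adjusted p = 0.0057). RVE1 gave 0.63 ± 0.25 (adjusted p = 0.13) and CCA1 -0.27 ± 0.21 (adjusted p = 0.49). RVE6 (0.25 ± 0.25), RVE7 (0.00 ± 0.20), LNK1 (-0.17 ± 0.19) and LNK2 (0.03 ± 0.12) were not called either. No gene was called lower by edgeR or DESeq2, nor was any lower at an unadjusted p under 0.05.

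Polysome levels of RVE8 were low in Col-0, and its call was lost without Col-0 polysome replicate 2 (0.75, adjusted p = 0.072), Col-0 polysome replicate 3 (0.87, 0.065), Col-0 total replicate 1 (0.91, 0.054) or rh6812 total replicate 2 (0.83, 0.055). Leaving out 1 library brought in CCA1 and RVE1 as well. CCA1 was lower without Col-0 polysome replicate 1 (-0.59, adjusted p = 0.022), and RVE1 was higher without Col-0 total replicate 2 (0.83, 0.019) or rh6812 total replicate 1 (0.82, 0.039). All 4 root markers moved in this comparison too, with differences of -1.11 to -2.50, all lower in rh6812. Root markers summed to 796 to 840 CPM in rh6812 polysomes and 959 to 1046 CPM in Col-0 polysomes. PYK10 alone averaged 815 CPM in rh6812 polysomes and 954 CPM in Col-0 polysomes. The 4 green tissue markers, between -0.11 and 0.08, were not called. The part of root RNA in the clock gene values was not tested.

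In rRNA-depleted RNA at 0 min, the picture of the clock MYB genes was a different one. CCA1, LHY, RVE4 and LNK2 were lower in rh6812 than in Col-0, and RVE2 and RVE6 were higher. These 2 higher and 4 lower calls of 10 stand against 48.4% of the 21486 genes tested, 24.4% higher and 24% lower, and 7 of the 10 genes had no overlap between the genotypes, against 54.1% of all genes.

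LNK2 differed most. It had 24.6, 23.2 and 21.9 CPM in rh6812, against 104, 115 and 109 CPM in Col-0, 0.212 times the Col-0 mean (log2 change -2.24 ± 0.13, adjusted p = 7.7e-13). LHY had 39.4, 39.1 and 34.4 CPM in rh6812 and 69.3, 84.7 and 67.1 CPM in Col-0 (-0.97 ± 0.19, adjusted p = 0.00018). CCA1 had 30.9, 37.2 and 32.2 CPM in rh6812 and 43.2, 50.9 and 42.8 CPM in Col-0 (-0.45 ± 0.16, adjusted p = 0.022). All rh6812 libraries lay below all Col-0 libraries for LNK2, LHY and CCA1.

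The activator RVE4 had 17.8, 20.5 and 18.9 CPM in rh6812 and 26.4, 26.6 and 30.0 CPM in Col-0 (-0.54 ± 0.13, adjusted p = 0.0012). RVE6, its close relative, went the other way, with 10.2, 8.11 and 9.89 CPM in rh6812 and 6.50, 6.12 and 6.88 CPM in Col-0 (0.53 ± 0.15, adjusted p = 0.0043). RVE8 had 11.3, 15.7 and 11.4 CPM in rh6812 and 16.6, 18.3 and 16.9 CPM in Col-0, all lower but not called (-0.44 ± 0.22, adjusted p = 0.096). Neither the RVE4 nor the RVE6 groups overlapped.

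RVE2 had 45.3, 53.5 and 53.3 CPM in rh6812 and 21.4, 43.7 and 23.3 CPM in Col-0 (0.79 ± 0.28, adjusted p = 0.025), where Col-0 replicate 2 held about as much as the lowest rh6812 library. RVE1 had 23.0, 30.6 and 21.2 CPM in rh6812 and 14.1, 29.0 and 15.2 CPM in Col-0, with the same Col-0 replicate high and the groups overlapping (0.36 ± 0.23, adjusted p = 0.2). Without that Col-0 library, RVE2 gave 1.18 (adjusted p = 0.002), RVE1 was called higher (0.76, 0.0037) and CCA1 lost its call (-0.36, 0.094). RVE7 (-0.19 ± 0.23, adjusted p = 0.53) and LNK1 (-0.19 ± 0.15, adjusted p = 0.3) did not pass the test. Col-0 replicate 2 was high for RVE7 too, with 7.43 CPM against 3.35 and 4.65 CPM in Col-0 replicates 1 and 3. The log2 change of RVE7 ran from -0.42 to 0.17 when 1 library was left out at a time, so its sign is uncertain.

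The CCA1 call was also lost without rh6812 replicate 1 (-0.40, adjusted p = 0.079), without rh6812 replicate 3 (-0.42, 0.067) and with scaling by library size alone (-0.23, 0.29), which also ended that of RVE4 (-0.31, 0.084). RVE2 was lost without Col-0 replicate 1 (0.60, 0.12), Col-0 replicate 3 (0.65, 0.10), rh6812 replicate 2 (0.75, 0.062) or rh6812 replicate 3 (0.75, 0.065), and RVE8 was called without rh6812 replicate 2 (-0.60, 0.044).

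Root markers summed to 2789 to 3266 CPM in rh6812 and 2001 to 2104 CPM in Col-0 at 0 min, with 2 of 4 higher and 0 lower. Of the 4 green tissue markers 0 were higher and 2 lower, and their sums were 10480 to 11340 CPM in rh6812 and 10360 to 12700 CPM in Col-0. At 120 min, too, 2 root markers were higher and 2 green markers lower, with root sums of 2849 to 3483 CPM in rh6812 and 2602 to 2686 CPM in Col-0. PYK10 made up most of these root sums, with means at 0 min of 2952 CPM in rh6812 and 2017 CPM in Col-0. The part of root and green tissue in the clock gene values was not tested.

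Levels of different genes can be compared per kilobase of exon in this set. At 0 min in rh6812, RVE2 was the highest, with 51.8 ± 4.8 CPM per kb (SD, n = 3), followed by RVE1 at 12.4 ± 2.5 and CCA1 at 12.3 ± 1.2. LHY, with libraries between 10.04 and 11.5 CPM per kb, and RVE4, at 9.06 ± 0.64, came next. LNK2 was sixth there, at 7.93 ± 0.46. In Col-0, LNK2 was the highest at 37.4 ± 2.0 CPM per kb, and RVE2 (30.0 ± 12.6), LHY (21.5 ± 2.8) and CCA1 (16.8 ± 1.7) followed. RVE7 was the lowest in both genotypes, at 2.23 ± 0.27 CPM per kb in rh6812 and 2.54 ± 1.03 in Col-0.

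Set side by side, CCA1 averaged 37.3 CPM in rh6812 total poly(A)+ RNA and 33.4 CPM in rh6812 rRNA-depleted RNA at 0 min, but 6.51 CPM in Col-0 total RNA and 45.6 CPM in Col-0 at 0 min. For LHY these means were 46.9 and 37.6 CPM in rh6812 and 3.84 and 73.7 CPM in Col-0. RVE8 averaged 18.2 and 12.8 CPM in rh6812 and 2.01 and 17.3 CPM in Col-0. Between the sets the rh6812 means of these 3 genes thus lay closer together than the Col-0 means did. The reverse held for LNK2 and RVE6. LNK2 averaged 118.3 and 23.2 CPM in rh6812 and 169.4 and 109.3 CPM in Col-0. For RVE6 the means were 4.90 and 9.40 CPM in rh6812 and 4.83 and 6.50 CPM in Col-0. The CPM of the sets have unlike denominators and were scaled apart. Organelle genes gave 43.6% to 60.7% of the rRNA-depleted counts. In the poly(A)+ set 212 loci had no value and were left out, and organelle genes gave 0% of the counts that remained. Whether organelle RNA was absent there or only not counted is not known. How close levels lie between the sets therefore depends on the scale of each set too. Preparation, cordycepin label and any difference in harvest cannot be told apart between the sets.

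**Figure D3:**
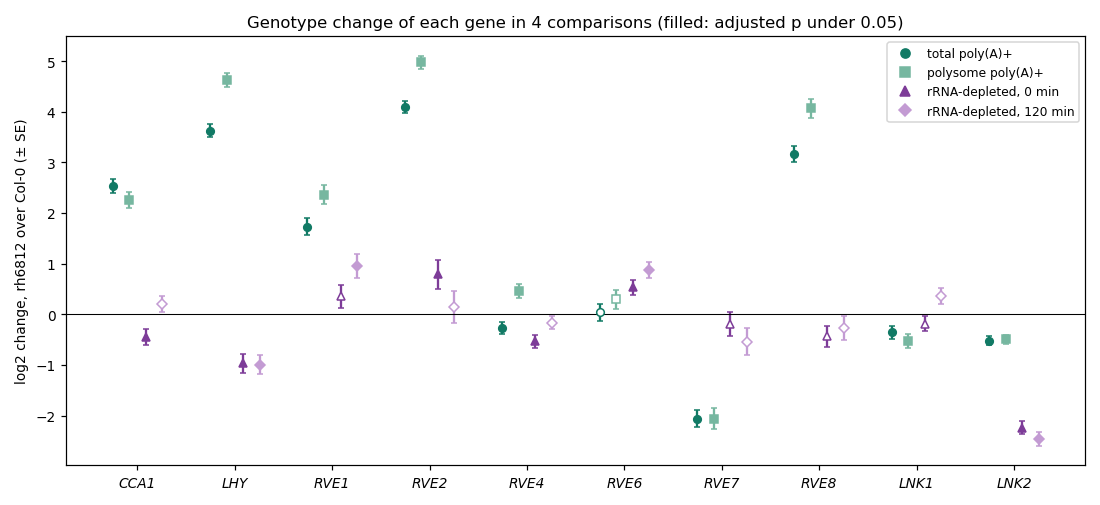
Log2 change of rh6812 over Col-0 (y axis, ± SE) of each gene in total and polysome poly(A)+ RNA and in rRNA-depleted RNA at 0 and 120 min, filled where the adjusted p is under 0.05. CCA1, LHY and RVE8 lie above 0 in both poly(A)+ comparisons and below 0 at 0 min, and LNK2 lies below 0 in all 4.

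After 120 min of cordycepin, LNK2 and LHY were still lower in rh6812, and RVE1 and RVE6 were higher. These 2 higher and 2 lower calls stand against 56.6% of genes called, 29.8% higher and 26.8% lower, and 5 of the 10 genes had no overlap between the genotypes, against 61.8% of all genes. LNK2 had 23.6, 19.2 and 18.2 CPM in rh6812 and 104, 128 and 103 CPM in Col-0 (log2 change -2.46 ± 0.14, adjusted p = 1.1e-13). LHY had 40.3, 50.5 and 35.2 CPM in rh6812 and 70.2, 110 and 70.5 CPM in Col-0 (-0.99 ± 0.19, adjusted p = 0.00011). Groups did not overlap for either gene.

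RVE1 had 18.6, 17.8 and 20.6 CPM in rh6812 and 11.2, 9.81 and 8.64 CPM in Col-0 (0.95 ± 0.24, adjusted p = 0.0017). RVE6 had 10.1, 12.6 and 9.07 CPM in rh6812 and 5.92, 5.50 and 5.72 CPM in Col-0 (0.87 ± 0.16, adjusted p = 3.4e-05). All rh6812 libraries lay above all Col-0 libraries for both. CCA1 no longer differed past the threshold (0.20 ± 0.16, adjusted p = 0.31), nor did RVE2 (0.14 ± 0.32, 0.73), RVE4 (-0.17 ± 0.13, 0.29), RVE8 (-0.27 ± 0.24, 0.33) or RVE7 (-0.54 ± 0.26, 0.081). LNK1 gave 0.35 ± 0.16 (adjusted p = 0.054) and was called higher without rh6812 replicate 2 (0.47, 0.019) or rh6812 replicate 3 (0.44, 0.036). With library size alone, CCA1 (0.58, adjusted p = 0.0056) and LNK1 (0.74, adjusted p = 0.00054) were both called higher at 120 min, and LHY remained lower at -0.61 (adjusted p = 0.01).

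Over the first 30 min of cordycepin, no gene of the 10 was called in either genotype or in the difference between genotypes, by edgeR or by DESeq2. Of all genes, 2.95% were called in rh6812, 11.1% in Col-0 (5.9% higher and 5.24% lower at 30 min) and 0.275% in the difference. At an unadjusted p under 0.05, 2 genes were lower at 30 min in rh6812, 3 in Col-0 and 0 in the difference. RVE2 gave -0.75 ± 0.29 in Col-0 (adjusted p = 0.11), but -0.36 (adjusted p = 0.56) without 0 min replicate 2 and -0.93 (adjusted p = 0.046) with library size alone. RVE7 gave -0.75 ± 0.24 in rh6812 (adjusted p = 0.11). Replicate numbers pair the Col-0 libraries of these times, and with a replicate block CCA1 was called lower at 30 min in Col-0 (-0.33, adjusted p = 0.018, against -0.31 and 0.25 without it). With a block within each genotype, chosen after seeing the data, RVE1 (-0.53, adjusted p = 0.021) and RVE2 (-0.76, adjusted p = 0.023) were called lower in Col-0 too. RVE7 was called lower in Col-0 without 0 min replicate 1 (-0.80, adjusted p = 0.033).

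The whole time course was summarised as a slope of log2 level against time, in log2 units per hour. TMM scaling sets the slope of the bulk of transcripts near 0, so a negative slope means a loss faster than that of the typical transcript and not an absolute half-life. In rh6812, RVE2 and RVE8 had negative slopes, against 21.7% of genes called, 10.1% higher and 11.6% lower. In Col-0, CCA1, RVE1, RVE2, RVE4, RVE8 and LNK1 did, against 50.7% of genes called, 23.4% higher and 27.3% lower.

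RVE2 had the most negative slope of the 10 genes in both genotypes. In rh6812 it had 45.3, 53.5 and 53.3 CPM at 0 min, 32.6, 30.1 and 58.2 at 15 min, 31.6, 31.3 and 39.1 at 30 min, 17.4, 15.4 and 19.0 at 60 min and 11.4, 11.4 and 8.53 at 120 min. In Col-0 it had 21.4, 43.7 and 23.3 CPM at 0 min, 17.9, 21.9 and 11.9 at 15 min, 19.5, 23.0 and 9.58 at 30 min, 9.74, 11.6 and 8.81 at 60 min and 10.3, 9.15 and 8.76 at 120 min. Its mean at 120 min was 20.6% of that at 0 min in rh6812 and 31.9% in Col-0, and the slopes were -1.19 ± 0.15 in rh6812 (adjusted p = 3.4e-06) and -0.77 ± 0.15 in Col-0 (adjusted p = 9.3e-05). The difference of -0.41 ± 0.21 did not pass the test (adjusted p = 0.19), but it did without Col-0 series replicate 2 (-0.63, adjusted p = 0.036), where the Col-0 slope was -0.56 (adjusted p = 0.005).

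RVE8 was lost faster than the bulk in both genotypes, with slopes of -0.38 ± 0.10 in rh6812 (adjusted p = 0.0047) and -0.43 ± 0.09 in Col-0 (adjusted p = 0.00036). Its mean at 120 min was 61.0% of that at 0 min in rh6812 and 54.2% in Col-0. The rh6812 call was lost without series replicate 3 (-0.35, adjusted p = 0.062) and with times up to 60 min only (-0.49, adjusted p = 0.18), where that of Col-0 was lost too (-0.51, adjusted p = 0.053).

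CCA1 declined in Col-0, relative to the bulk, and had a slope near 0 in rh6812. Its levels in rh6812 were 30.9, 37.2 and 32.2 CPM at 0 min and 34.0, 40.6 and 28.2 CPM at 120 min, and in Col-0 43.2, 50.9 and 42.8 CPM at 0 min and 27.7, 35.7 and 25.9 CPM at 120 min. The slopes were 0.02 ± 0.07 in rh6812 and -0.29 ± 0.07 in Col-0 (adjusted p = 0.00097), and the difference was 0.32 ± 0.10 (adjusted p = 0.029). LNK1 was similar, with a slope of -0.07 ± 0.06 in rh6812 and -0.33 ± 0.06 in Col-0 (adjusted p = 6.5e-05) and a difference of 0.26 ± 0.09 (adjusted p = 0.042). Its levels were 17.5, 14.5 and 17.5 CPM at 0 min and 18.9, 12.1 and 13.3 CPM at 120 min in rh6812, and 16.6, 19.1 and 20.9 CPM at 0 min and 10.4, 12.3 and 12.2 CPM at 120 min in Col-0.

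CCA1 and LNK1 were the 2 of the 10 genes with slopes called different between the genotypes, against 13.8% of all genes, 9.28% higher and 4.57% lower. Both calls depended on single series and on the times used. With times up to 60 min only, neither CCA1 (0.25, adjusted p = 0.65) nor LNK1 (0.29, 0.47) was called, and likewise without 0 min, at 0.29 (0.14) for CCA1 and 0.21 (0.21) for LNK1. CCA1 missed the threshold without rh6812 series replicate 1 (0.27, adjusted p = 0.16), rh6812 series replicate 2 (0.29, 0.085), Col-0 series replicate 1 (0.30, 0.088) or Col-0 series replicate 3 (0.28, 0.10). LNK1 missed it without rh6812 series replicate 1 (0.15, 0.25) or Col-0 series replicate 1 (0.25, 0.10), 2 (0.25, 0.12) or 3 (0.22, 0.17).

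RVE1 had a slope of -0.14 ± 0.10 in rh6812 (adjusted p = 0.32) and -0.48 ± 0.10 in Col-0 (adjusted p = 0.00034), a difference of 0.34 ± 0.14 that was not called (adjusted p = 0.11), though it was with a replicate block within genotype (0.32, adjusted p = 0.036). Without Col-0 series replicate 2 the Col-0 slope of RVE1 was -0.31 (adjusted p = 0.012) and the difference 0.16 (adjusted p = 0.42). RVE4 gave -0.05 ± 0.06 in rh6812 (adjusted p = 0.54) and -0.22 ± 0.06 in Col-0 (adjusted p = 0.0013), and the Col-0 call was lost without series replicate 3 (-0.15, adjusted p = 0.067) or without 0 min (-0.14, adjusted p = 0.095). RVE6 gave 0.15 ± 0.07 in rh6812 (adjusted p = 0.12) and -0.12 ± 0.08 in Col-0 (adjusted p = 0.19), and the difference of 0.27 ± 0.10 was not called (adjusted p = 0.073). RVE7 gave -0.32 ± 0.14 in rh6812 (adjusted p = 0.1) and -0.07 ± 0.13 in Col-0 (adjusted p = 0.68). LHY and LNK2 had no called slope in either genotype. LHY slopes were 0.07 ± 0.08 in rh6812 and 0.08 ± 0.08 in Col-0, and LNK2 slopes were -0.12 ± 0.06 in rh6812 and 0.03 ± 0.06 in Col-0. In every library of the time course LNK2 lay between 18.2 and 27.4 CPM in rh6812 and between 81.4 and 128 CPM in Col-0. For LHY the ranges were 34.4 to 50.5 CPM in rh6812 and 54.7 to 110 CPM in Col-0, so the genotypes did not overlap at any time for either gene.

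**Figure D4:**
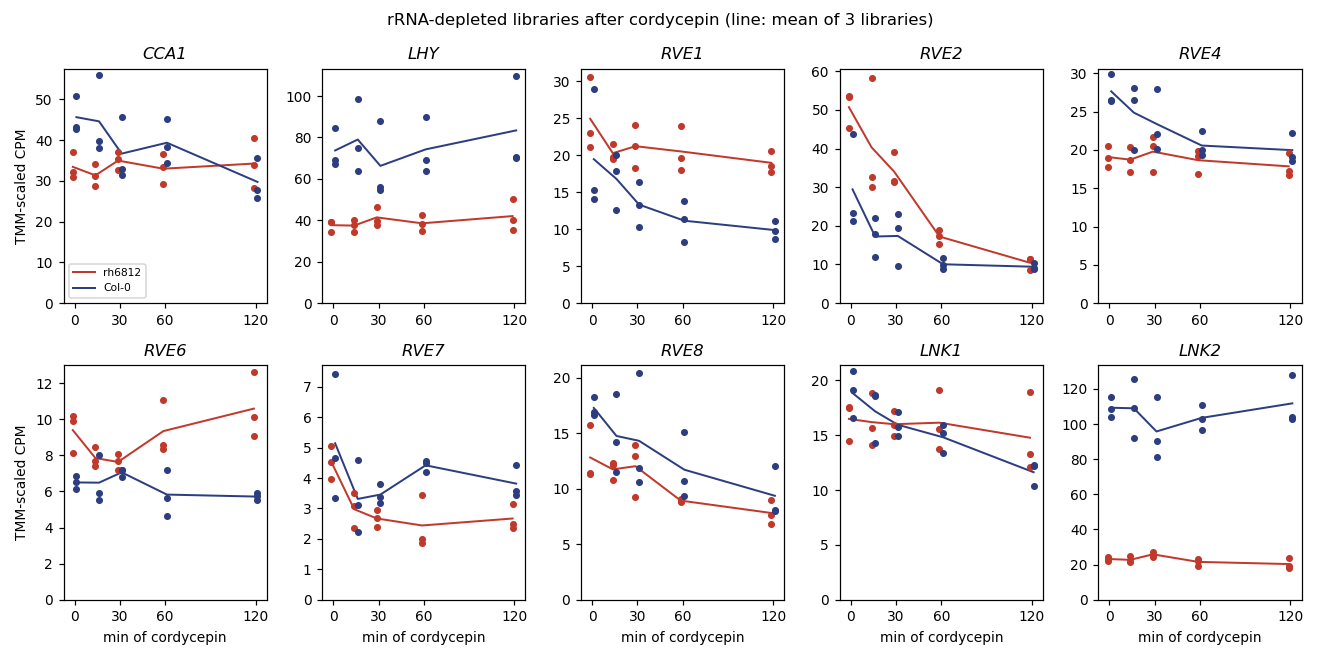
TMM-scaled CPM (y axis, linear, from 0) of the 10 genes against minutes of cordycepin in rh6812 (red) and Col-0 (blue), with points for libraries and lines through the means of 3. RVE2 declines in both genotypes, and LNK2 and LHY stay lower in rh6812 at all 5 times.

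**Figure D5:**
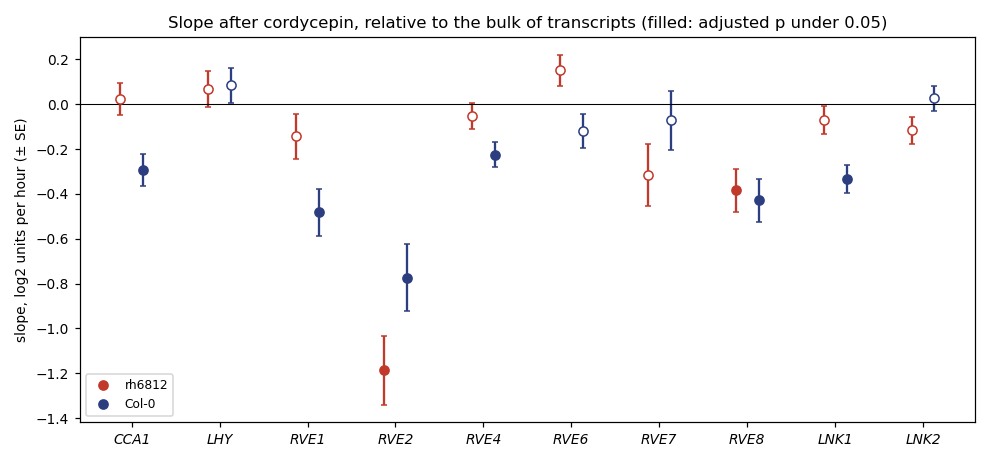
Slope in log2 units per hour (y axis, ± SE), relative to the bulk of transcripts, of each gene in rh6812 (red, left) and Col-0 (blue, right), filled where the adjusted p is under 0.05. Of the 10 genes, 2 are filled in rh6812 and 6 in Col-0, and CCA1 and LNK1 are the 2 whose slopes were called different.

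The genes around the morning MYB loop were counted from lists fixed by their known roles. Of 17 PRR and evening clock genes, 2 were higher and 14 lower in rh6812 total RNA, with a median log2 change of -1.08, against -0.03 over all genes tested, of which 64.6% were called (32.2% higher and 32.4% lower), and 0.88 over the 10 morning genes. PRR5 (-3.19 ± 0.13, adjusted p = 6.4e-19), a repressor of CCA1 and LHY, LUX (-1.35 ± 0.10, adjusted p = 1e-12), a part of the evening complex, and GI (-1.92 ± 0.10, adjusted p = 7.8e-17), a partner of the photoreceptor FKF1, were lower. The 2 higher were CDF1 (1.78 ± 0.18, adjusted p = 3.4e-10), a repressor of flowering genes, and BOA (0.56 ± 0.19, adjusted p = 0.0098), whose call was lost with library size alone (0.41, adjusted p = 0.068). Among the 14, ZTL missed the threshold with DESeq2 size factors (-0.19, adjusted p = 0.056).

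In rRNA-depleted RNA at 0 min, 2 of the same 17 genes were higher and 4 lower, with a median of -0.08 against -0.02 over all genes tested, of which 48.4% were called. At 0 min PRR7, a repressor of CCA1 and LHY, was lower (-1.83 ± 0.15, adjusted p = 3.8e-10). Its CPM were 5.66, 4.94 and 6.59 in rh6812 and 21.6, 16.6 and 23.1 in Col-0. PRR9, the earliest of the PRR genes to peak, gave -1.58 ± 0.35 (adjusted p = 0.00054) and FKF1 -1.30 ± 0.30 (adjusted p = 0.001). PRR5 was the fourth lower gene (-0.89) and missed the threshold with library size alone (-0.67, adjusted p = 0.052). CDF1 was higher (1.41 ± 0.18, adjusted p = 4e-07).

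Of 11 known regulators of CCA1 and LHY, 3 were higher and 8 lower in rh6812 total RNA, with a median of -0.41, against the same 64.6% of all genes called. The higher ones included HY5 (1.07 ± 0.11, adjusted p = 1.6e-09), a light-signalling factor that activates CCA1, and the corepressor TPL (0.69 ± 0.08, adjusted p = 9.6e-09). TCP20, the third, missed the threshold with library size alone (0.19, adjusted p = 0.17). CHE, the TCP factor that represses CCA1, was lower (-0.83 ± 0.09, adjusted p = 3.5e-09). At 0 min, where 48.4% of all genes were called, 3 of the 11 were higher and 1 lower, with a median of 0.13, and CHE was the lower one (-0.78 ± 0.23, adjusted p = 0.0075).

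Of 7 genes known to act downstream of RVE8 with the LNKs, or of RVE1, 6 could be tested in total RNA, 4 of them higher and 2 lower, with a median of 1.89, against 64.6% of all genes called. F3H (2.15 ± 0.17, adjusted p = 6.3e-09) and LDOX (2.63 ± 0.43, adjusted p = 3.3e-06), enzymes of flavonoid and anthocyanin synthesis, were higher. YUC8, the auxin synthesis gene downstream of RVE1 (-2.37 ± 0.18, adjusted p = 1.1e-12), and PORA (-1.82 ± 0.29, adjusted p = 2.3e-06), an enzyme of chlorophyll synthesis, were lower. At 0 min, 3 of the 7 were higher and 1 lower, with a median of 0.60, against 48.4% of all genes called. Of 4 relatives outside the 10 genes, RVE3 (2.20 ± 0.69, adjusted p = 0.0064) and LNK3 (0.46 ± 0.14, adjusted p = 0.0049) were higher and LNK4 lower (-1.27 ± 0.13, adjusted p = 1.1e-09) in rh6812 total RNA. LNK4 was lower at 0 min as well (-1.38 ± 0.21, adjusted p = 6.6e-06), where LNK3 was lower too (-0.54 ± 0.21, adjusted p = 0.035). With library size alone neither LNK3 call remained, at 0.31 (adjusted p = 0.07) in total RNA and -0.33 (adjusted p = 0.23) at 0 min.

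The genes whose levels most resembled each morning gene were found by Pearson correlation of mean log2 CPM over the 14 groups, each set centred on its own mean, among 16270 genes. The 14 points share libraries and scaling, so each r is a description. The nearest to CCA1 was ROC2 (r = 0.977), to LHY FBA1 (0.973), to RVE2 AT4G14050 (0.974), to RVE8 AT5G60670 (0.970) and to LNK2 LARP6b (0.990), followed by PAB8 (0.988), which encodes a poly(A)-binding protein. For RVE1 it was AT5G17305 (0.985), the locus that overlaps it on the opposite strand. For RVE7 it was AT1G26650 (0.970), and next came AT3G10113 (0.967), a locus touched by a stretch near-identical to RVE7 exons.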

How the data were processed

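The authors deposited 1 table of read counts per locus, which its values show to be raw, covering 12 poly(A)+ and 30 rRNA-depleted libraries. The submitters' processing notes list Bowtie2 2.2.5, TopHat2 2.0.14 and the build TAIR10. Which counter and annotation were used, and whether strand was considered, is not given in the sources used here. Counts were analysed as deposited in R 4.3.3 with edgeR 4.0.16 (TMM factors, filterByExpr with minimum count 10 and minimum total 15, robust quasi-likelihood test, two-sided, Benjamini-Hochberg adjustment over all genes of a set). The 2 sets were fitted apart, each with 1 mean per group, and the rRNA-depleted set also with a line per genotype for slopes. SEs were derived from each log2 value and its F statistic. DESeq2 1.42.0 was an alternative. The tests were tried on simulated counts.

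No label states that replicates came from separate cultures. The p-values therefore rest on the spread among these samples, and it may be technical. Same-numbered libraries deviated together, with every correlation above 0.1, in all 10 pairs of Col-0 times, in 7 of 10 pairs of rh6812 times (0 with 30 min among them), in 4 of 25 pairs across genotypes (neither 0 with 0 min nor 120 with 120 min) and in 0 of 6 poly(A)+ pairs. The members and lists were chosen with earlier results of these data known. All 10 members are named in every comparison or given as a count, and of other lists up to 4 genes with the smallest p, plus the genes whose call a scaling changed, which were chosen after their values were seen. Upstream sequences are from RefSeq, assembly TAIR10.1, and copies were found with BLAST 2.17.0; the count table holds no coordinates. Counting limits the precision of the lowest values, such as RVE8 on Col-0 polysomes. No column was left out.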

Additional observations from a re-analysis of the deposited data

Results flagged for a closer look

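Ribosome association differed between rh6812 and Col-0 by the test of the interaction for LHY (log2 difference 1.00), RVE2 (0.88), RVE4 (0.74) and RVE8 (0.90). Slopes after cordycepin differed between rh6812 and Col-0 by the test of the difference for CCA1 (0.32 log2 units per hour) and LNK1 (0.26).

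For 3 genes all rh6812 libraries lay above all Col-0 libraries in total poly(A)+ RNA and below them in rRNA-depleted RNA at 0 min, and the difference between the 2 sets was not tested. The log2 changes were 2.53 and -0.45 for CCA1, 3.63 and -0.97 for LHY, and 3.17 and -0.44 for RVE8, the last not past the threshold at 0 min.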

How the results depend on the processing

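Of 1121 gene values under 46 alternative settings, 1023 kept their direction and their side of the threshold. Another 53 fell short of it, 27 came to pass it and 18 changed sign, none of the last past the threshold in the main analysis. Scaling by library size alone moved the median of all genes by more than 0.1 in several comparisons. The median became -0.18 in total RNA, against -0.03 with TMM. In the Col-0 polysome ratio it became -0.19, against 0.04, and at 120 min 0.42, against 0.03. Over all genes, library size alone gave 5480 higher and 8448 lower in total RNA, against 6753 and 6783 with TMM. In ribosome association it gave 794 and 1004, against 692 and 1351. It gave 3541 higher and 7360 lower in the rh6812 polysome ratio, against 5444 and 5696, and 3841 and 8036 in that of Col-0, against 6425 and 5658. At 0 min it gave 7201 higher and 2573 lower, against 5240 and 5150, and at 120 min 10094 and 2487, against 6400 and 5763. In the Col-0 early change it gave 916 higher and 1679 lower, against 1267 and 1125. Slopes were 506 higher and 4167 lower in rh6812, against 2171 and 2491, and 1373 and 9979 in Col-0, against 5033 and 5864, and slope differences 3067 and 253, against 1994 and 981. With it, the number of genes called changed to 0 higher in the rh6812 polysome ratio, 2 lower at 0 min, 4 higher at 120 min, 1 lower in the Col-0 early change, 4 lower slopes in rh6812 and 4 higher slope differences. It also turned the sign of RVE6 in total RNA (-0.12), of CCA1 (-0.15) and LHY (-0.068) in the rh6812 polysome ratio, of RVE7 (0.016) and LNK1 (0.025) at 0 min, of RVE4 (0.23) and RVE8 (0.12) at 120 min, and of the slopes of LHY in rh6812 (-0.034) and of LHY (-0.10) and LNK2 (-0.16) in Col-0. With times up to 60 min only, 1 slope was lower in rh6812, 0 slope differences were higher, and LHY (-0.023) and LNK2 (-0.084) turned sign in Col-0. Without 0 min, 1 slope was higher in rh6812 and 1 slope difference was higher. With DESeq2 size factors 1 slope difference was higher, and with only the 2 groups compared 2 genes were lower in the rh6812 early change.

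With a replicate block 1 gene was lower in the Col-0 early change, and with a block within genotype, chosen after seeing the data, 3 were. Numbers do not pair the libraries of the genotype comparisons, where the block brought RVE1 in ribosome association (0.63, adjusted p = 0.034) and RVE8 at 0 min (-0.45, adjusted p = 0.0079) past the threshold.

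Leaving out 1 library or series at a time, the genes called ranged from 2 to 4 lower in total RNA. In ribosome association they ranged from 3 to 5 higher and 0 to 1 lower. The polysome ratio had 0 to 2 higher in rh6812. In Col-0 it had 1 to 2 higher and 4 to 5 lower, always below the 6 lower of the main analysis. At 0 min 1 to 3 were higher and 3 to 5 lower, and at 120 min 2 to 3 were higher. The Col-0 early change had 0 to 1 lower. Slopes were lower for 1 to 2 genes in rh6812 and 5 to 6 in Col-0. Slope differences were 0 to 2 higher and 0 to 1 lower. Signs turned for RVE6 in total RNA (-0.062 to 0.13), RVE2 in the rh6812 polysome ratio (-0.074 to 0.052) and RVE7 at 0 min (-0.42 to 0.17). The cause of these changes was not tested.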
